A study of Mus musculus with 4 samples.

Results

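The 32 genes described here are 16 genes of DNA replication, called S phase genes below, and 16 genes of the G2 phase and mitosis, called G2/M genes. They were taken as a fixed list of symbols, and all 32 were present among the 31053 genes of the count matrix. They were followed in 4 single-cell RNA libraries of mouse fetuses, each made on the Chromium droplet system, which counts RNA molecules by unique molecular identifiers (UMIs). All fetuses were labelled Cyp27a1-/-, that is, without a working copy of the gene for sterol 27-hydroxylase, which oxidises cholesterol. The groups differed by the mother, either Cyp27a1+/- (het mother) or Cyp27a1-/- (null mother), and by age, E14.5 or E18.5. The question the design poses is what the mother's enzyme means for fetuses that lack it themselves. Each of the 4 groups was a single library, and how many fetuses were pooled in it is not given in the sources used here. There is therefore no replicate check, and no test was made. Intervals below are exact 95% intervals that cover counting error only, and a ratio is always the null mother over the het mother.

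Before a cell divides it copies its DNA once and then separates the copies. In S phase the MCM helicase opens the DNA, the clamp Pcna holds the polymerase on it, and enzymes such as Rrm2 and Tyms supply the building blocks. In G2 and mitosis the kinase Cdk1 with its B-type cyclins starts division, Aurora and Polo kinases guide the spindle, and the anaphase-promoting complex ends the phase by marking cyclins for destruction. RNAs of the first group are mostly made under E2F factors and those of the second under the MuvB complex with B-Myb and FoxM1. RNAs of both groups thus serve as a readout of dividing cells in the fetal lung and in fetal blood formation.

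The libraries held 4957 cells (E14.5, het mother), 4843 cells (E14.5, null mother), 17034 cells (E18.5, het mother) and 16517 cells (E18.5, null mother), with 47005276 to 118054232 UMIs in all and median depths of 3697 to 6387 UMIs per cell. All are labelled as lung. The libraries labelled E18.5 did not show it: Nkx2-1, a defining factor of lung epithelium, had 4 and 1 UMIs in them, whereas albumin, made by hepatocytes, reached 2905 and 8344 counts per 1000000 UMIs (CPM). They are called the libraries labelled E18.5, and the ages are set side by side without a comparison. Cyp27a1, the deleted gene, had 18.7 and 19.7 CPM at E14.5 and 38.5 and 37.3 CPM in the libraries labelled E18.5 (het, then null mother). The deleted part is not given in the sources used here, so counts over the whole gene do not check the labels. The library labelled E18.5 with a het mother also carries a WT tag in its title. Its cells that could be sexed from RNA were 5395 male and 22 female, against 3875 male and 4411 female with the null mother, so sex and mother cannot be told apart in a comparison of all cells there. A cell was called male with RNA of a Y-linked gene and none of Xist, and female the other way round. Such a call needs a detected UMI, so deeper cells are called more easily and sexed cells are picked by depth too. Pairs of libraries shared 93 to 164 cell barcodes. In the E14.5 library with a null mother, the 196 cells with such a barcode had a median of 36207.5 UMIs and held 11.8% of its UMIs.

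Promoter sequence is shown first because E2F and MuvB act through known short motifs. In RefSeq's table for GRCm38.p6, 14 of 16 S phase and 14 of 16 G2/M members had a window of 250 bases before the transcription start, and 3 motifs were searched there on both strands; Mcm4, Gins2, Aurkb and Tpx2 were not matched. The E2F site (TTTCCCGC, TTTGGCGC, TTTCGCGC or TTTGCCGC) was present in 7 of 14 S phase and 1 of 14 G2/M members, against 2.16% of 27025 genes. The cell cycle homology region (TTTGAA) was present in 1 of 14 S phase and 6 of 14 G2/M members, against 18.3% of all genes. At least 2 CCAAT boxes were present in 7 of 14 S phase and 11 of 14 G2/M members, against 11.5%. Matches of different motifs may overlap at their ends. Below are the 120 bases before the start of 2 members of each group, on the strand of the gene, with motif matches in capitals (ATTGG and TTCAAA are matches on the opposite strand); they were picked after the matches were seen. Dtl lies on the minus strand at chr1:191575545-191575664, Mcm3 on the minus strand at chr1:20820313-20820432, Cdc20 on the minus strand at chr4:118437344-118437463 and Top2a on the minus strand at chr11:99024190-99024309.
Dtl: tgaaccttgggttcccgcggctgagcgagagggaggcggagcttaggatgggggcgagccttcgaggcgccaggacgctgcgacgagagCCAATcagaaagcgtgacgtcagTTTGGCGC
Mcm3: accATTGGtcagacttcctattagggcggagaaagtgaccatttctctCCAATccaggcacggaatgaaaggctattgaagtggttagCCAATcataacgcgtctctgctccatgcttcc
Cdc20: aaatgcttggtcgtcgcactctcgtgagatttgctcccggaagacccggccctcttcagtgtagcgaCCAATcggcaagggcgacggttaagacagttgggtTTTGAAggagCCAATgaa
Top2a: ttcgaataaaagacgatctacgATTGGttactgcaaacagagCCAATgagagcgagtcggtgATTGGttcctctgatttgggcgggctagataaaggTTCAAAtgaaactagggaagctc
Dtl, the substrate adaptor of an S phase ubiquitin ligase, has its E2F match directly before the start, and Mcm3, a helicase subunit, has 3 CCAAT boxes. Cdc20, the activator of the anaphase-promoting complex, and Top2a, which untangles sister DNA, each have a TTTGAA match, which in Cdc20 lies between 2 CCAAT boxes and in Top2a follows 3 of them. A match is a description of the letters and not of binding.

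Where the members were high followed the cell classes. Cells were put in a class when they held RNA of at least 3 of its 6 marker genes and of more markers than for any other class, and levels are given as UMIs per 1000000 UMIs other than haemoglobin, because haemoglobin RNA fills erythroid cells. At E14.5 with a het mother, the summed S phase genes stood at 2146 in epithelium, 1827 in endothelium, 1768 in mesenchyme and 674 in erythroid cells. The summed G2/M genes were ordered differently there, with 5084 in erythroid cells, 3462 in endothelium, 2956 in mesenchyme and 2637 in epithelium. The erythroid sum rested on few genes: of its 445 UMIs, 260 were of Ube2c, 67 of Nusap1 and 42 of Mki67. Erythroid cells were the highest class for these genes, but the lowest for Cdk1, Ccnb2, Aurkb, Plk1, Bub1, Cenpf, Tpx2, Hmmr and Birc5. Epithelium was the highest class for 11 of 16 S phase members, and endothelium for 10 of 16 G2/M members. With the null mother these counts were 4 and 8, and the 107 erythroid cells were highest for 7 S phase and 6 G2/M members. Those erythroid leads rest on few UMIs, from 7 for Cdc6 to 51 for Rrm2 in the S phase list. In the G2/M list they rest on 14 for Aurkb to 482 for Ube2c. In the library labelled E18.5 with a het mother, erythroid cells led both lists (3065 for S phase and 5482 for G2/M), followed by B cell precursors (2280 and 4126). Hepatocytes were lowest in both (202 and 376), and mature neutrophils next (386 and 636). The null-mother library labelled E18.5 also had erythroid cells highest (2574 and 5859) and hepatocytes lowest (271 and 473). The neutrophil classes differed: with the het mother, S phase levels were 1552 in early, 872 in granule-stage and 386 in mature neutrophils. Their G2/M levels were 2364, 2783 and 636. With the null mother, S phase levels were 1573, 888 and 445 and G2/M levels 2559, 3000 and 1358. The class gated as mature held more granule-stage than mature marker RNA, as given below, so the stages are not cleanly parted.

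**Figure D1:**
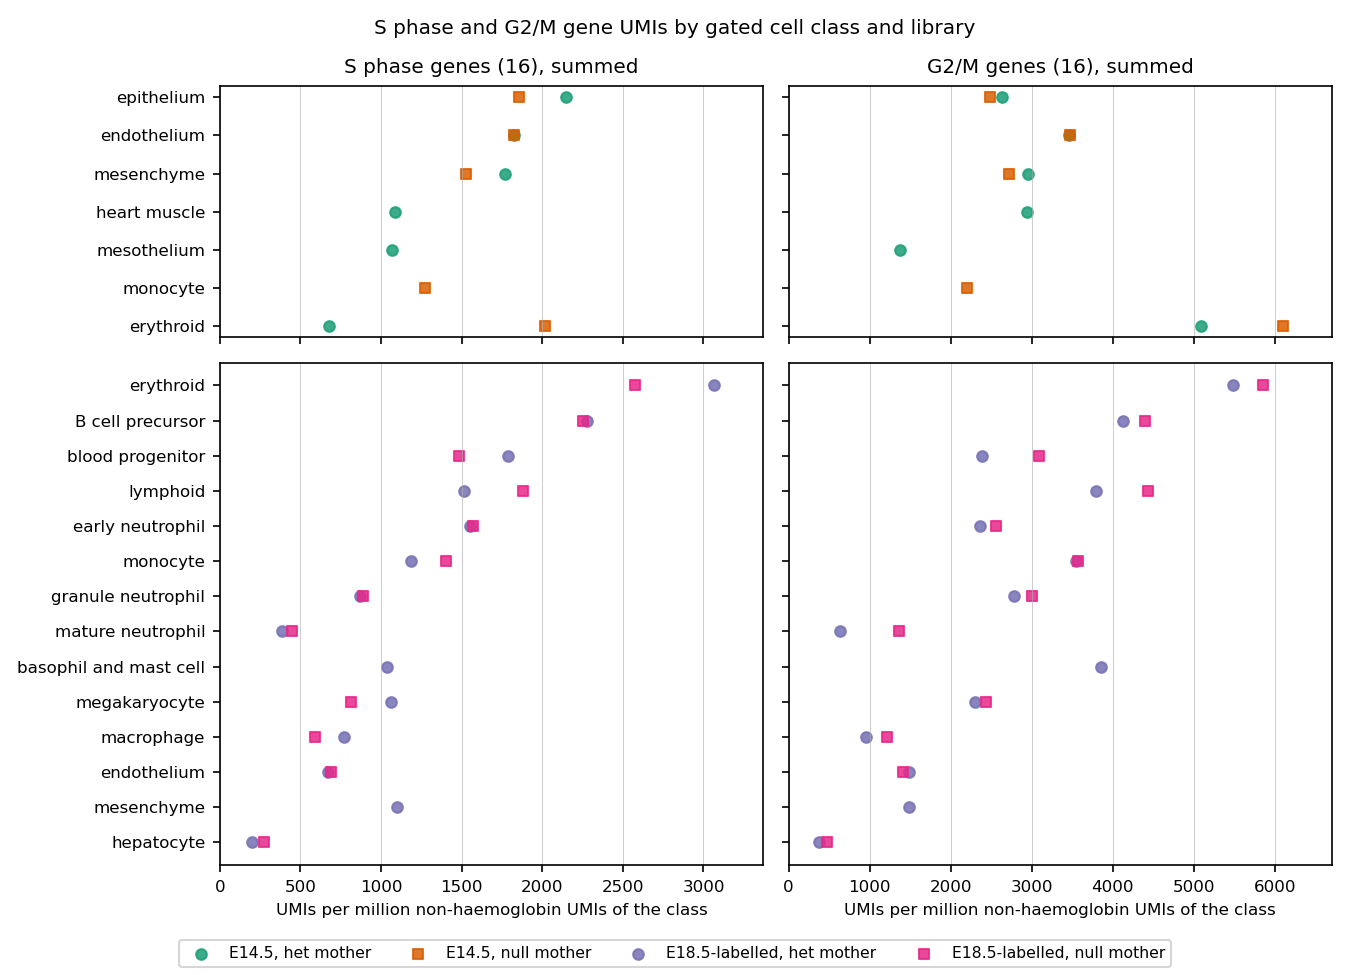
Summed S phase (left) and G2/M (right) gene UMIs per 1000000 non-haemoglobin UMIs of each gated class (x axis), with 1 point per library and class of at least 50 cells; E14.5 classes are above and classes labelled E18.5 below. Erythroid cells and B cell precursors lie to the right and hepatocytes to the left in both libraries labelled E18.5, and the E14.5 epithelium and mesenchyme points for the null mother lie left of those for the het mother.

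Over all cells of a library, at E14.5 the S phase genes had a ratio of 0.901 and the G2/M genes 0.946, with 16 of 16 and 15 of 16 members lower, where 56.8% of all genes were. In the libraries labelled E18.5 the ratios were 0.885 and 0.990, with 14 of 16 S phase members lower, where 35.9% of all genes were, and 9 of 16 G2/M members higher, where 64.1% were. These sums mix the cell classes, whose numbers differ between libraries.

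In E14.5 epithelium, the S phase genes were lower with the null mother. Their sum was 2142 CPM with the het mother and 1852 CPM with the null mother, a ratio of 0.865 (0.847 to 0.883), and 15 of 16 members were lower, where 54% of all measured genes were. A gene counts as measured with 50 UMIs or more on the side where its CPM is higher, so where a class has unequal UMI totals a gene passes more easily if the deeper side is higher. A second filter, set on the mean CPM of both libraries and the smaller total, treats both directions alike. Its shares are called even-filter shares and are given beside some of the counts only. A member is counted past the fold when it is over 20% lower or over 25% higher, which is the same ratio turned over. Past the fold, 4 members were lower and 0 higher, where 8.62% of all measured genes were lower and 11.5% higher. The even-filter shares of this class were 57.6% lower at any size, 8.52% lower past the fold and 8.43% higher past the fold. Rrm2, the small subunit of ribonucleotide reductase, had 148 CPM with the het mother and 105 CPM with the null mother. Its partner subunit Rrm1 had 138 and 109 CPM. Pcna, the sliding clamp, had 65.0 and 50.3 CPM. These genes act in nucleotide supply and in the replication fork, and all 3 were lower with the null mother. The median log2 ratio of the 16 members was -0.20, against -0.016 for all measured genes.

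The G2/M genes of the same epithelium differed less, from 2633 to 2484 CPM (ratio 0.943, 0.926 to 0.961), with 10 of 16 members lower, where 54% of all genes were, and 2 past the fold, where 8.62% were. Both counts are near the background. Aurkb, the Aurora kinase of the chromosomal passenger complex, had 64.7 and 50.0 CPM. Bub1, a kinase of the spindle checkpoint, had 60.3 and 46.5 CPM. Top2a had 394 and 343 CPM. These 3 were lower with the null mother, but the list as a whole depended on which cells were counted: the ratio was 0.786 in male cells (102 and 128 cells) and 1.06 in female cells (172 and 306 cells), and the log2 ratio was -0.0028 without cells whose barcode another library shares. Sftpc, the surfactant gene of distal lung epithelium, stood at 280 CPM of all cells with the het mother and 1444 CPM with the null mother; its part in the result was not tested.

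E14.5 mesenchyme, the connective tissue that surrounds the airways, had the most cells of the gated E14.5 classes (1877 and 1769). Its S phase genes summed to 1767 CPM with the het mother and 1523 CPM with the null mother (ratio 0.862, 0.850 to 0.874), and 16 of 16 members were lower, where 53.3% of all genes were. Rrm2 was the S phase member past the fold (114 and 90.0 CPM), where 7.51% of all genes were. Gins2, a partner of the helicase, had 85.1 and 70.8 CPM. Uhrf1, which carries DNA methylation over to new strands, had 97.3 and 81.3 CPM. Each S phase gene thus differed little, and all 16 to the same side. The G2/M genes summed to 2953 and 2715 CPM (ratio 0.919, 0.910 to 0.929), with 15 of 16 lower. Aurkb had 68.2 and 54.0 CPM, and was the G2/M member past the fold. Cdk1, the kinase that starts mitosis, had 155 and 126 CPM. Birc5, the survivin protein of the passenger complex, had 311 and 261 CPM. In male cells the S phase ratio was 0.808 and in female cells 0.878, while the G2/M ratio was 0.981 in male and 0.900 in female cells.

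E14.5 endothelium, the lining of blood vessels, showed sums that differed by less than counting error. The S phase sum was 1826 CPM with the het mother and 1822 CPM with the null mother (ratio 0.998, 0.972 to 1.02), with 8 of 16 members lower, where 43.7% of all genes were (even-filter share 48.3%). The G2/M sum was 3461 and 3472 CPM (ratio 1.00, 0.984 to 1.02), also with 8 of 16 lower. Single members still differed: Bub1 had 65.7 and 46.0 CPM, and was the G2/M member past the fold, where 7.45% of all genes were. Hmmr, a spindle protein, had 117 and 94.8 CPM. Nusap1, which bundles spindle microtubules, had 108 and 133 CPM. Median depth in this class was 10072 UMIs with the het mother and 13994 with the null mother. That the mother's genotype acts differently on these classes was not tested.

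Across the E14.5 classes, 7 of 16 S phase members (Gins2, Hells, Mcm4, Pcna, Slbp, Tyms, Uhrf1) and 4 of 16 G2/M members (Aurkb, Bub1, Cdk1, Plk1) were lower in every class where they were measured. Of 7887 genes measured in at least 3 classes, 25.2% were. With the even filter 13 of 32 members were, against 28.8% of 6971 genes. For the 11 members named, the classes measured were epithelium, mesenchyme and endothelium, as they had too few UMIs in erythroid cells. In erythroid cells all but Hells (3 and 4 UMIs, het, then null mother) had a higher CPM with the null mother, for example Slbp (3 and 39 UMIs). Rrm2 (17 and 51 UMIs) and Birc5 (10 and 59 UMIs), which the even filter added, were also higher in erythroid cells. Nusap1 was higher in 4 of 4 classes, as were 20.1% of all genes in every class where measured. Its exons overlap those of Oip5 on the opposite strand, and whether reads were counted by strand is not given in the sources used here. The same holds for Mcm7 (Cops6 and Ap4m1), Gins2 (Gse1), Cdc20 (Elovl1) and Ube2c (Tnnc2). The few erythroid cells of E14.5 (70 and 107) had 59 and 334 S phase UMIs, or 83.7 and 325 CPM (ratio 3.89, 2.94 to 5.22), and 445 and 1008 G2/M UMIs (ratio 1.55, 1.39 to 1.74). In that class 58.3% of the 424 measured genes were higher past the fold.

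**Figure D2:**
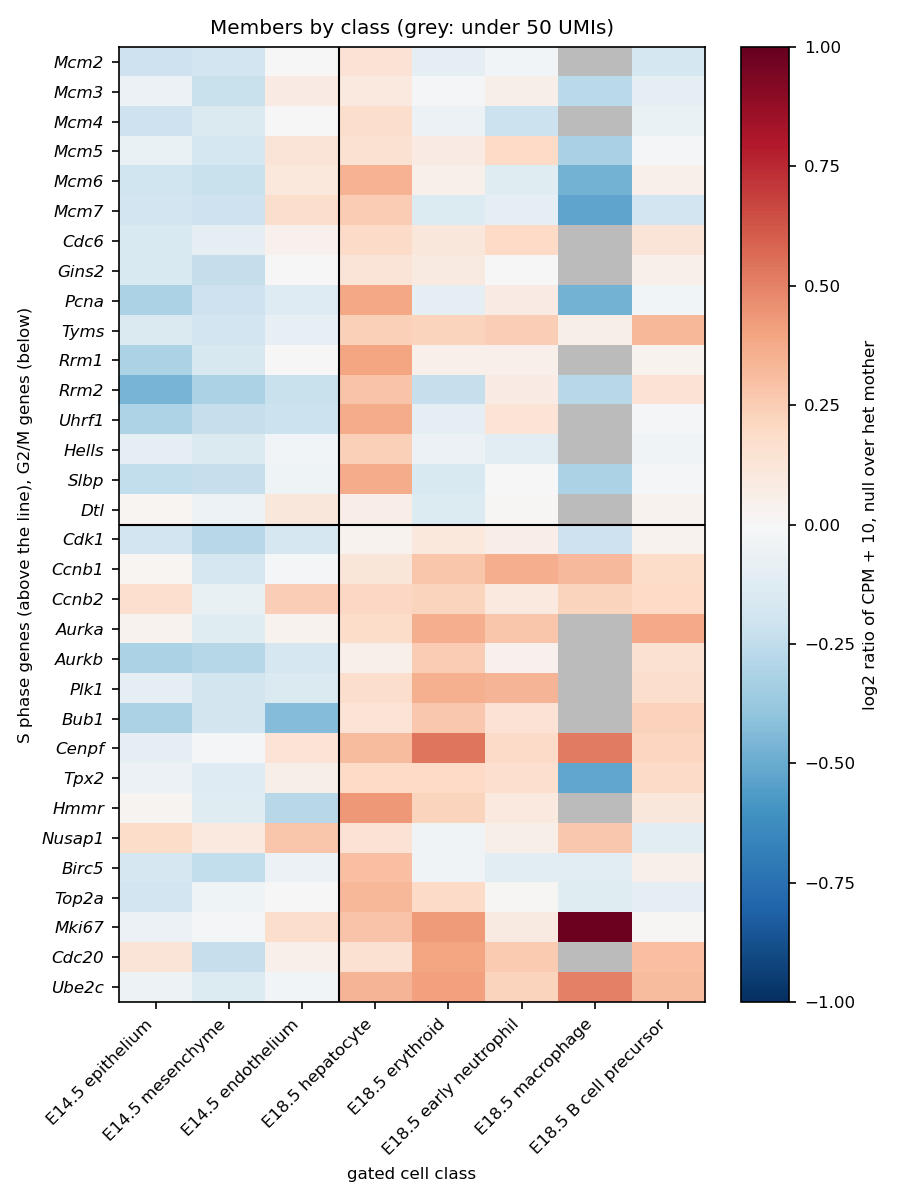
Colour gives the log2 ratio of CPM plus 10, null over het mother, for each of the 32 members (rows) in 8 gated classes (columns); red is higher and blue lower with the null mother, and grey marks members under 50 UMIs. The S phase rows are blue in E14.5 epithelium and mesenchyme with the exception of Dtl in epithelium, and Mki67 in macrophages is the darkest cell, with 126 and 257 CPM.

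In the libraries labelled E18.5, both lists were summed over each class. Over 12 classes with at least 50 cells in both libraries, the G2/M sum was higher with the null mother beyond counting error in 10 classes and lower in 1, and the S phase sum was higher in 5 and lower in 4. The G2/M ratio was above the S phase ratio in 8 of 12 classes and below it in monocytes, endothelium, hepatocytes and lymphoid cells. In some classes most genes were higher, with 88.2% of all measured genes in erythroid cells, 80.6% in hepatocytes and 61.4% in early neutrophils, and a higher sum there is read against those shares. The classes share their libraries, so they are not independent. Among 30 members measured in at least 8 classes, 6 were higher in every class where measured, against 9.99% of 4185 genes: the S phase member Tyms, which makes thymidylate (11 of 11 classes), and the G2/M members Ube2c (12 of 12), Ccnb1 (11 of 11), Aurkb (10 of 10), Aurka (8 of 8) and Bub1 (8 of 8). None was lower in every class, as were 0.86% of genes. With the even filter 18 members were measured in at least 8 classes, and Tyms, Ube2c and Ccnb1 were higher in every class where measured, against 9.6% of 3220 genes. The S phase members other than Tyms went to both sides: Mcm7 was lower in 8 of 10 classes, while Rrm1 was higher in 8 of 10 and Mcm6 in 7 of 11. No share of all genes was set beside these counts.

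Erythroid cells, the red cell precursors, were the most numerous class (5387 and 3519 cells). Their S phase genes summed to 2072 CPM with the het mother and 1998 CPM with the null mother (ratio 0.964, 0.953 to 0.975), and their G2/M genes to 3705 and 4546 CPM (ratio 1.23, 1.22 to 1.24). In this class 88.2% of all measured genes were higher and 11.8% lower at any size, and the median log2 ratio of all genes was 0.17. Of the G2/M members 14 of 16 were higher, a share near that background, and 7 were past the fold, where 51.8% of all genes were. Of the S phase members 10 of 16 were lower and 0 were past the fold. Cenpf, a kinetochore protein, had 209 and 308 CPM. Mki67, which coats mitotic chromosomes, had 737 and 992 CPM. Ube2c, the ubiquitin-conjugating enzyme of the anaphase-promoting complex, had 675 and 898 CPM. In the S phase list Rrm2 was lower (317 and 269 CPM) and Tyms higher (127 and 151 CPM). Haemoglobin took 32.4% of erythroid UMIs with the het mother and 22.4% with the null mother. In male cells alone, a set picked by depth as well, the G2/M log2 ratio was -0.030, against 0.30 in all cells. It was -0.076 where only cells past 1000 genes, with mitochondrial RNA below 10%, were kept, and 0.092 when haemoglobin, mitochondrial, S100a8 and S100a9 UMIs were left out. The S phase log2 ratio, -0.053 as summed, was -0.26 without those UMIs and 0.25, of opposite sign, as a mean over cells.

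The haemoglobin share of a cell, which grows as red cells mature, ordered the 2 lists differently. With the het mother, S phase genes stood at 2910, 4091, 3686 and 866 per 1000000 non-haemoglobin UMIs in cells with under 10%, 10 to 30%, 30 to 60% and over 60% haemoglobin. The G2/M genes stood at 3846, 6331, 11338 and 9187 in the same bands. With the null mother the S phase values were 2619, 2651, 2968 and 1431 and the G2/M values 3873, 7401, 13085 and 16773. The S phase sum was thus lowest in the cells richest in haemoglobin in both libraries, and the G2/M sum was lowest in the cells poorest in it. Not every member followed its sum. Rrm2 stood at 316 under 10% and 340 over 60% with the het mother, and at 264 and 594 with the null mother. With the het mother Cdc20, Top2a, Birc5, Plk1, Aurkb and Bub1 were lower over 60% than under 10%, and the other G2/M members higher. Of the 9187 there, Ube2c held 3189, Mki67 2007 and Nusap1 1042. Per cell, both lists were lower in the richest band: with the het mother, S phase UMIs per cell were 40.4 in the poorest and 0.613 in the richest band, and G2/M UMIs 53.3 and 6.51. With the null mother these were 40.2 and 1.60 for S phase and 59.4 and 18.7 for G2/M.

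Most G2/M members peaked late but not at the same band. With the het mother 13 of 16 were highest at 30 to 60%, and with the null mother 12 of 16 were highest above 60%. Ube2c was highest above 60% in both, at 3189 on this scale with the het mother and 5085 with the null mother. Nusap1 was too (1042 and 1065). Mki67 was highest at 30 to 60% in both (3200 and 4086). Of the S phase members, 12 of 16 were highest at 10 to 30% with the het mother, and 8 of 16 under 10% with the null mother. Median depth in the 10 to 30% band was 9561 UMIs in 695 cells with the het mother and 1769 UMIs in 379 cells with the null mother; its part in the difference was not tested. Per cell, Ube2c, Nusap1 and Mki67 did not peak late. From the poorest to the richest band Ube2c had 7.37, 7.47, 3.96 and 2.26 UMIs per cell with the het mother. With the null mother it had 9.86, 4.18, 4.67 and 5.67. Median non-haemoglobin UMIs per cell were 13733 in the poorest and 585 in the richest band with the het mother.

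**Figure D3:**
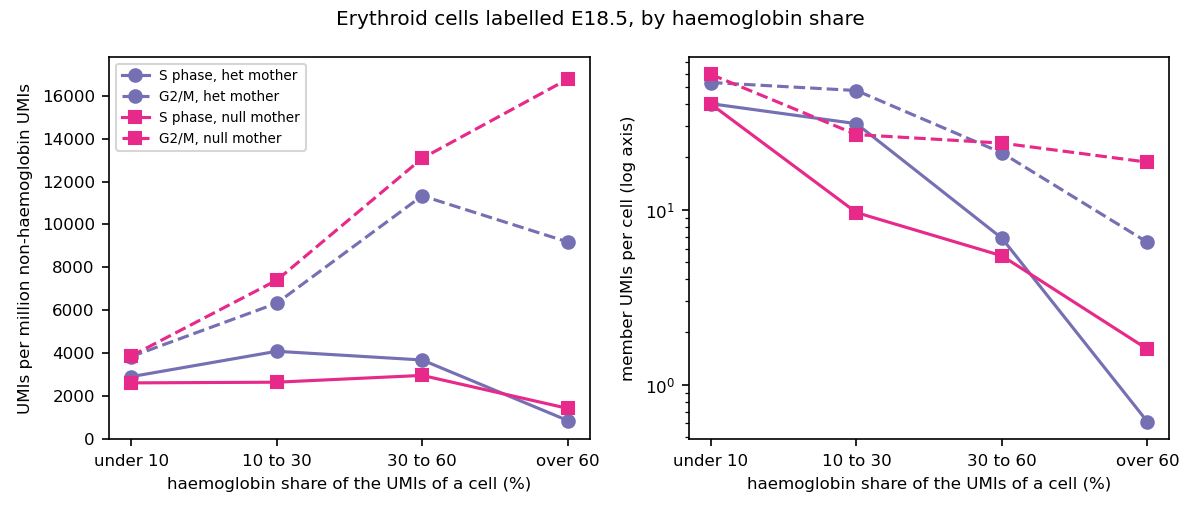
Summed S phase (solid) and G2/M (dashed) UMIs of erythroid cells labelled E18.5 by the haemoglobin share of the cell (x axis), per 1000000 non-haemoglobin UMIs with exact 95% counting intervals (left) and per cell on a log axis (right); circles are the het and squares the null mother. Above 60% haemoglobin the G2/M level was 9187 with the het and 16773 with the null mother, and S phase levels were lowest there in both.

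Hepatocytes, the liver's own cells, held few member UMIs, and more with the null mother (574 and 1861 cells). The S phase sum was 199 CPM with the het mother and 269 CPM with the null mother (ratio 1.35, 1.26 to 1.45), and the G2/M sum was 371 and 471 CPM (ratio 1.27, 1.2 to 1.34). All 32 members had the higher CPM with the null mother, where 80.6% of all measured genes did. Past the fold were 10 S phase and 9 G2/M members, where 34.8% of all genes were. The class held far more UMIs with the null mother, which the filter favours: the even filter left 7 S phase and 12 G2/M members, 5 and 6 of them past the fold, and its shares were 72.5% of all genes higher and 24.6% past the fold. The median of all genes was itself higher, at a log2 ratio of 0.12, against 0.24 for the S phase and 0.19 for the G2/M members. Rrm1 had 15.4 and 23.3 CPM, Pcna 7.79 and 13.2 CPM, and Slbp, which binds histone RNA, 19.6 and 28.3 CPM. Hmmr had 14.2 and 22.7 CPM, Ube2c 59.2 and 77.7 CPM, and Top2a 36.3 and 48.3 CPM. Each of these 6 was higher with the null mother. Markers of granule-stage neutrophils in the hepatocyte class stood at 251 and 648 CPM and erythroid markers at 72.5 and 52.6 CPM; their part was not tested.

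Early neutrophils, which make the primary granules, had S phase sums of 1536 and 1565 CPM (ratio 1.02, 0.998 to 1.04) and G2/M sums of 2340 and 2546 CPM (ratio 1.09, 1.07 to 1.11). In the G2/M list 15 of 16 members were higher, where 61.4% of all genes were (even-filter share 58.7%), and 3 were past the fold, where 14.1% were (even-filter share 11%). Ccnb1, the mitotic cyclin, had 69.5 and 92.1 CPM. Plk1, the Polo kinase, had 51.8 and 68.5 CPM. Aurka, the kinase of spindle poles, had 54.7 and 68.6 CPM. The S phase members went to both sides, with Tyms at 105 and 126 CPM, Mcm5 at 105 and 122 CPM and Mcm4 at 83.4 and 70.4 CPM. Hepatocyte markers in this class stood at 17.2 and 97.6 CPM, and in erythroid cells at 20.5 and 86.2 CPM; their part was not tested.

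B cell precursors (2262 and 2289 cells) had S phase sums of 2212 and 2220 CPM (ratio 1.00, 0.984 to 1.02) and G2/M sums of 4003 and 4331 CPM (ratio 1.08, 1.07 to 1.1), with 14 of 16 G2/M members higher, where 50.5% of all genes were. Aurka was past the fold (55.5 and 74.9 CPM), where 12.8% of all genes were. Ube2c had 568 and 708 CPM and Cdc20 159 and 199 CPM. Tyms, the S phase member past the fold, had 118 and 151 CPM. In contrast Mcm7 had 209 and 181 CPM and Mcm2 102 and 89.3 CPM. In male cells, a set picked by depth as well, the G2/M log2 ratio was 0.025, against 0.11 in all cells. Hepatocyte markers in this class stood at 41.3 and 270 CPM.

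Macrophages (335 and 401 cells) had the widest split between the lists among the 5 classes chosen for the libraries labelled E18.5. The S phase sum was 735 CPM with the het mother and 533 CPM with the null mother (ratio 0.725, 0.661 to 0.796), and the G2/M sum was 912 and 1097 CPM (ratio 1.2, 1.11 to 1.30). Lower past the fold were 6 of 8 measured S phase members, where 12.4% of all genes were, and higher were 4 of 10 measured G2/M members, where 19.8% were. With the even filter these were 3 of 4, against 14.6%, and 3 of 6, against 10.1%. The counts cover the members that passed, and nothing is read from them. Mcm7 had 64.7 and 41.9 CPM, Pcna 56.9 and 38.3 CPM and Mcm6 63.7 and 43.3 CPM. Mki67 had 126 and 257 CPM and Cenpf 49.0 and 74.7 CPM, while Tpx2, a spindle assembly factor, had 53.9 and 34.6 CPM. The macrophage cells also differed in median depth (1889 and 4532 UMIs), in haemoglobin (4.21% and 9.27% of UMIs) and in erythroid markers (267 and 698 CPM); their part was not tested. With 4 markers and a margin of 2 required, the S phase log2 ratio was -0.10 in place of -0.46. In male cells, a set picked by depth as well, the G2/M log2 ratio was -0.31 in place of 0.27.

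Of the other classes labelled E18.5, mature neutrophils had the highest G2/M ratio, 2.19 (1.98 to 2.42), from 636 UMIs in 411 cells and 997 UMIs in 193 cells. The 5 members that passed the filter were past the fold, where 22.7% of all genes were. With the even filter these were 4 of 4, against 24%. The counts cover the members that passed, and nothing is read from them. In the mature neutrophil class the mature markers stood at 25543 and 14451 CPM and the granule-stage markers at 37016 and 53094 CPM. Blood progenitors (128 and 123 cells) had a ratio of 0.834 for S phase and 1.30 for G2/M, with 11 of 16 G2/M members past the fold, where 15.2% of all genes were (10 of 15 and 13.2% with the even filter). Megakaryocytes (99 and 65 cells) had 0.766 and 1.06, with 10 of 13 measured S phase members lower past the fold, where 14.6% of all genes were (8 of 11 and 14.1% with the even filter). Monocytes had 1.19 and 1.01. Endothelium had 1.01 and 0.931 and was the class with a lower G2/M sum.

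The members were also counted per cell. Each cell was thinned at random to 2000 UMIs, cells below that depth were left out, and a cell was counted when it held RNA of at least 2 members of a list. In E14.5 epithelium, 77.9% of 321 cells passed for S phase with the het mother (72.9 to 82.3%) and 67.3% of 490 cells with the null mother (63.0 to 71.5%). For G2/M these shares were 63.6% and 51.2%. In E14.5 mesenchyme the S phase shares were 67.1% and 55.7% and the G2/M shares 57.9% and 47.0%. In E14.5 endothelium they were 74.4% and 73.3% for S phase and 71.8% and 73.3% for G2/M. The per-cell shares were thus lower with the null mother in the same 2 classes as the sums. Thinned shares rest on the same UMIs as the sums, so they are not a separate check of them. Left out as too shallow were 20 and 18 epithelial, 203 and 209 mesenchymal and 34 and 54 endothelial cells. The epithelial gap was smaller without thinning, with 95.3% and 94.7% of cells passing for S phase and 89.4% and 86.8% for G2/M. In mesenchyme the unthinned shares were 91.2% and 87.8% for S phase and 81.7% and 72.2% for G2/M.

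For the libraries labelled E18.5, the shares of erythroid cells were 42.6% of 4429 and 55.0% of 2863 for S phase and 64.5% and 84.7% for G2/M; the S phase share went against the CPM, so no order is read from it. Early neutrophils stood at 74.0% and 73.1% for S phase and 72.7% and 74.0% for G2/M. B cell precursors stood at 73.3% and 75.7% for S phase and 69.7% and 75.7% for G2/M. Hepatocytes had 6.27% and 8.48% for S phase and 9.61% and 11.5% for G2/M. The class gated as mature neutrophils had 8.67% and 10.6% for S phase and 11.7% and 26% for G2/M. Granule-stage markers stood above mature markers in this class in both libraries, so it is not taken as free of dividing cells. Unthinned, the shares of erythroid cells were 43.1% and 61.0% for S phase and 73.9% and 90.3% for G2/M, and those of mature neutrophils 7.79% and 14.51% for S phase and 10.5% and 23.3% for G2/M. Thinning left out 958 and 656 erythroid cells, 994 and 916 B cell precursors and 215 and 89 mature neutrophils. Droplets also hold free RNA, so shares near those of the mature neutrophil class are not read as dividing cells, nor as a floor without them. Erythroid cells of E14.5 reached 1.56% and 4.67% for S phase but 23.4% and 29.0% for G2/M. Haemoglobin took 87.6% and 83.9% of their UMIs, so these shares are not set beside those of other classes.

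**Figure D4:**
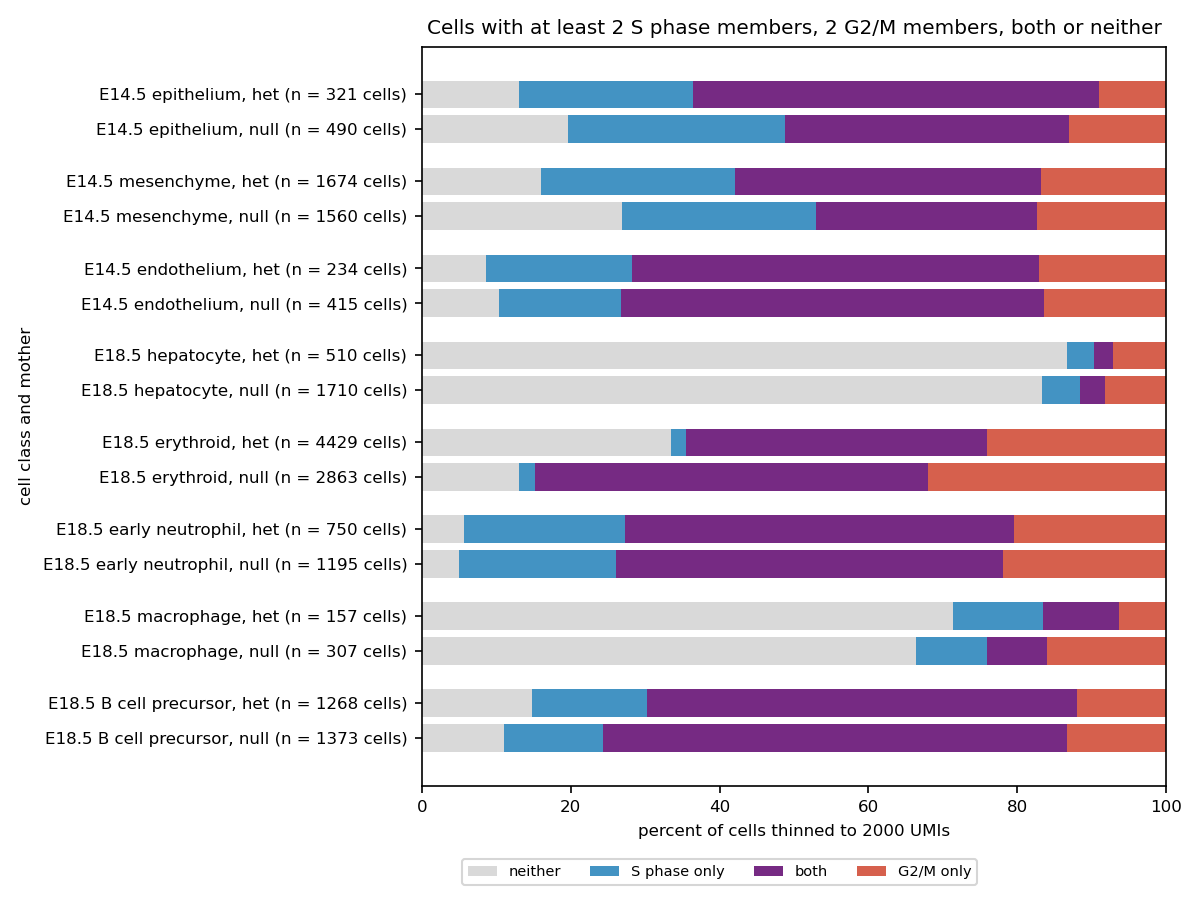
Bars give the percent of cells (x axis, thinned to 2000 UMIs) with at least 2 S phase members only, 2 G2/M members only, both or neither, for 8 classes with the het and the null mother. The share with neither was 16% and 26.9% in E14.5 mesenchyme, and G2/M without S phase was the rarest state in E14.5 epithelium (9.03% and 13.1%) and S phase without G2/M in erythroid cells (2.08% and 2.27%).

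Many cells held members of both lists. In E14.5 mesenchyme, 41.0% of cells with the het mother and 29.6% with the null mother did, while 26.1% in both libraries held S phase members alone. Erythroid cells labelled E18.5 nearly lacked that state (2.08% and 2.27%) and had 24% and 32% with G2/M members alone. Those with G2/M members alone had a median of 486 and 714 genes, against 2424 and 2476 in erythroid cells with both lists. Haemoglobin took 32.4% and 22.4% of erythroid UMIs. The erythroid shares are therefore not set beside those of other classes, nor read as shares of cells in G2 or mitosis. Early neutrophils had 21.7% and 21.0% with S phase members alone.

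Other cell cycle genes, 65 in 5 groups that were not used to sort the cells, were then summed over these states. In E14.5 mesenchyme with the het mother, the 22 other G2/M genes summed to 259 CPM in cells with neither list, 408 CPM with S phase members alone, 2745 CPM with both and 3873 CPM with G2/M members alone. The 20 other S phase genes summed to 614, 1770, 1990 and 990 CPM in the same order. All 22 other G2/M genes were highest in cells with G2/M members alone, as were 19 of 22 with the null mother. Of the 20 other S phase genes, 14 were highest in cells with both lists and 6 in cells with S phase members alone, in both libraries. The sum of 5 inhibitors of cyclin-dependent kinases was highest in cells with neither list, at 1355 CPM with the het mother and 1144 CPM with the null mother, where 2 of the 5 genes were each highest. Cdkn1c weighs most in that sum: over all mesenchyme cells with the het mother it had 838 CPM, against 31.1 CPM for Cdkn1b and 8.87 CPM for Cdkn2c. In early neutrophils labelled E18.5, 17 of 20 other S phase genes were highest in cells with S phase members alone in both libraries. Not every class followed these patterns in the libraries labelled E18.5. In erythroid cells 17 of 22 other G2/M genes were highest in cells with both lists and 5 in cells with G2/M members alone with the het mother, and 11 and 11 with the null mother. In null-mother macrophages 10 of 11 measured other G2/M genes were highest in cells with both, and in null-mother hepatocytes 19 of 19 measured other S phase genes were. Cells with neither list were also shallower: their median depth before thinning was 12933.5 UMIs in E14.5 mesenchyme with the het mother, against 17343 UMIs in cells with both.

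**Figure D5:**
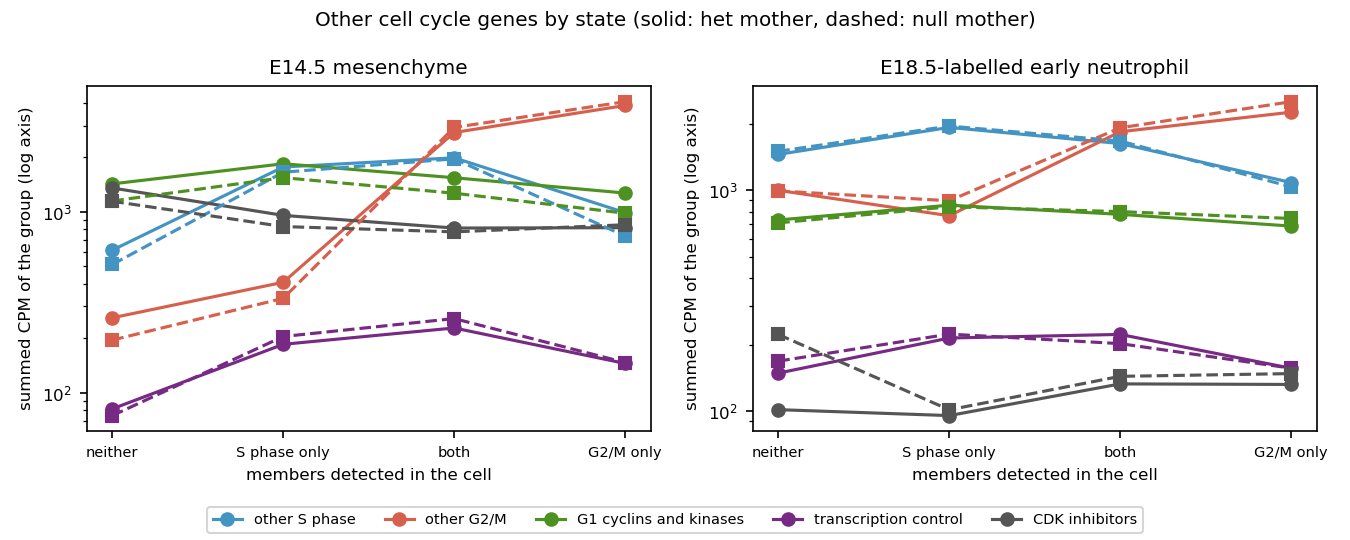
Summed CPM (log axis) of 5 groups of other cell cycle genes in cells sorted by the members they hold (x axis), in E14.5 mesenchyme (left) and early neutrophils labelled E18.5 (right), solid for the het and dashed for the null mother. In mesenchyme the other G2/M genes went from 259 CPM in cells with neither list to 3873 CPM in cells with G2/M members alone with the het mother.

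Between the mothers, the other genes of the cycle were set beside the members. In E14.5 mesenchyme 20 of 20 other S phase genes and 20 of 22 other G2/M genes were lower with the null mother, where 53.3% of all genes were, and 8 and 1 of them past the fold, where 7.51% were; the single G2/M gene is below that share. Ccnd1, a D-type cyclin of G1, had 82.0 CPM with the het mother and 42.7 CPM with the null mother there, and 362 and 260 CPM in epithelium. Ccnd2, its relative, had 454 and 315 CPM in mesenchyme but 355 and 440 CPM in epithelium. Cdkn1a, the p21 inhibitor, had 6.23 and 23.7 CPM in epithelium, from 44 and 270 UMIs. In the libraries labelled E18.5, Cdkn1c, the p57 inhibitor, had 7.64 and 27.2 CPM in erythroid cells, 6.87 and 27.7 CPM in early neutrophils and 17.7 and 63.3 CPM in B cell precursors. Hepatocytes held 864 and 1258 CPM of it, and in early neutrophils albumin UMIs were 1182 and 10075, so that Cdkn1c stood at 55.8 and 44.3 UMIs per 1000 albumin UMIs. This figure was 15.9 and 26.5 in hepatocytes themselves, 48.7 and 50.4 in erythroid cells, 59.8 and 35.3 in B cell precursors and 49.8 and 114 in macrophages; the part of free hepatocyte RNA was not tested. Cdk4, the G1 kinase, had 158 and 262 CPM in erythroid cells, and Ccnd3 268 and 203 CPM.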

How the data were processed

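UMI counts per gene and cell were deposited by the authors as 1 matrix of 31053 genes and 43351 cells; per the submitters' processing notes, Cell Ranger 3.0.0, Seurat 4.3.0 and mm10 were used, with no order given. Summed counts equalled the deposited total in every cell. Doublets were not removed here, and no cell had under 500 UMIs. Cells were gated into 18 classes by 6 markers each. Member UMIs were summed per class and library as CPM, with exact Poisson intervals, and ratios have exact conditional binomial intervals. A second filter, which treats both directions alike, needs 50 UMIs in the shallower library at the mean CPM of both, and was added after seeing the data. Log2 ratios of members used a pseudocount of 10 CPM. Named members are the 3 with the largest absolute log2 ratio per list and class, and of other cell cycle genes the 2 highest and 2 lowest; examples from these are printed. Members, lists and classes were chosen with earlier results of these data known, and the promoter motifs after them. The ratio and thinning code was tested on simulated data. All 30 promoter windows of the 28 matched members had the strand of the GENCODE gene, 27 shared words of 20 bases with its transcripts, and 0 did so when reversed. Python 3.11.15, numpy 2.4.6, scipy 1.17.1 and pandas 2.3.3 were used.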

Additional observations from a re-analysis of the deposited data

Results flagged for a closer look

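Summed G2/M genes of E14.5 epithelium had a ratio of null over het mother of 0.786 in male cells and 1.06 in female cells, on opposite sides of 1. Those of E14.5 endothelium had 1.06 in male cells and 0.92 in female cells, also on opposite sides. Summed S phase genes of erythroid cells had a ratio of 3.89 at E14.5 and 0.964 in the libraries labelled E18.5, where the first rests on 59 UMIs with the het mother. None of these differences was tested, since each group is 1 library.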

How the results depend on the processing

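The summed log2 ratios, null over het mother, are given where an alternative left the counting interval of the reported value; the other summed ratios stayed inside it, and the cause was not tested. Less the median log2 ratio of all genes, the values were 0.32 for S phase and 0.22 for G2/M in E18.5 hepatocyte, -0.23 for S phase and 0.12 for G2/M in E18.5 erythroid, -0.0089 for S phase (opposite sign) and 0.086 for G2/M in E18.5 early neutrophil. Without haemoglobin, mitochondrial, S100a8 and S100a9 UMIs they were -0.26 for S phase and 0.092 for G2/M in E18.5 erythroid, 0.092 for G2/M in E18.5 B cell precursor. As a mean over cells they were -0.27 for S phase and -0.14 for G2/M in E14.5 epithelium, -0.24 for S phase and -0.20 for G2/M in E14.5 mesenchyme, 0.039 for G2/M in E14.5 endothelium, 0.25 for S phase (opposite sign) and 0.73 for G2/M in E18.5 erythroid, -0.13 for S phase in E18.5 macrophage, 0.11 for S phase and 0.30 for G2/M in E18.5 B cell precursor. With 4 markers and a margin of 2 in the gate they were -0.19 for S phase and 0.28 for G2/M in E18.5 erythroid, 0.078 for S phase and 0.18 for G2/M in E18.5 early neutrophil, -0.097 for S phase and 0.43 for G2/M in E18.5 macrophage, 0.14 for G2/M in E18.5 B cell precursor. Without cells above the 95th UMI percentile they were -0.037 for G2/M in E14.5 epithelium, -0.25 for S phase and -0.15 for G2/M in E14.5 mesenchyme, 0.048 for S phase (opposite sign) in E14.5 endothelium, 0.18 for S phase and 0.22 for G2/M in E18.5 hepatocyte, 0.37 for G2/M in E18.5 erythroid, 0.18 for G2/M in E18.5 early neutrophil, -0.20 for S phase and 0.60 for G2/M in E18.5 macrophage, 0.15 for G2/M in E18.5 B cell precursor. In cells with 1000 genes and under 10% mitochondrial UMIs they were 0.48 for G2/M in E18.5 hepatocyte, -0.29 for S phase and -0.076 for G2/M (opposite sign) in E18.5 erythroid, -0.64 for S phase in E18.5 macrophage, -0.056 for S phase (opposite sign) and 0.023 for G2/M in E18.5 B cell precursor. In male cells they were -0.16 for S phase and -0.35 for G2/M in E14.5 epithelium, -0.31 for S phase and -0.028 for G2/M in E14.5 mesenchyme, -0.056 for S phase and 0.078 for G2/M in E14.5 endothelium, 0.56 for S phase in E18.5 hepatocyte, -0.20 for S phase and -0.030 for G2/M (opposite sign) in E18.5 erythroid, -0.76 for S phase and -0.31 for G2/M (opposite sign) in E18.5 macrophage, -0.052 for S phase (opposite sign) and 0.025 for G2/M in E18.5 B cell precursor. In female cells they were 0.086 for G2/M (opposite sign) in E14.5 epithelium, -0.19 for S phase and -0.15 for G2/M in E14.5 mesenchyme, -0.12 for G2/M (opposite sign) in E14.5 endothelium. Without cells whose barcode is in another library, an alternative chosen after seeing the data, they were -0.0028 for G2/M in E14.5 epithelium, 0.044 for S phase (opposite sign) and -0.042 for G2/M (opposite sign) in E14.5 endothelium. Female cells could not be compared in the libraries labelled E18.5, where the het-mother library held 22. Sexed cells are picked by depth as well as by sex, and the part of each was not tested. A fold of 1.5 left 0 of 4 lower S phase members in E14.5 epithelium, 0 of 7 higher G2/M members in erythroid cells and 4 of 10 higher S phase members in hepatocytes. With a filter alike in both directions, also chosen after seeing the data, 29 of 32 counts of members past the fold stayed within 1.5 times the reported ones; higher S phase members in hepatocytes were 5 in place of 10, and lower macrophage members were 3 in place of 6 for S phase and 0 in place of 1 for G2/M. Depth limited macrophages, where 8 of 16 S phase and 10 of 16 G2/M members reached 50 UMIs, and mature neutrophils, where 2 and 5 did. No paired analysis was possible because each group is 1 library.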
